A study of Rattus norvegicus with 24 samples.

Results

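Neuropeptide genes of spinal interneurons were followed in thoracic propriospinal (TPS) neurons of uninjured rats and of rats whose spinal cord had been cut below these cells. The 10 genes were Adcyap1, Vip, Gal, Npy, Calca, Tac1, Sst, Penk, Pdyn and Cck, chosen by name from a list. The choice was made with earlier results of these data known. Each of the 10 was represented by 1 of the 27342 probes of the array according to the platform's gene symbols, so no choice between probes was needed. All 10 lay among the 23240 probes above the lowest 15 percent by mean log2 intensity, and their mean was above that limit (a log2 intensity of 5.05) in each of the 7 groups.

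RNA came from 24 female Long Evans rats (age 77 ± 10 days by the labels), 1 Rat Gene 1.0 ST array for each animal. TPS neurons have their cell bodies in the thoracic cord and send axons to the lumbar enlargement. In all animals, controls included, the retrograde tracer Fluoro-Gold was injected there to mark these neurons, which were later cut out of the intermediate gray matter with a laser. Transected animals received a complete transection at the T9 level 1 week after labeling and survived for 3 days or 1 week (4 animals each), or for 2 weeks or 1 month (2 animals each) post-injury (p.i.). The small late groups go back to animals lost or failing quality control. Uninjured animals had tracer but no transection, and are named here as the labels name them, 4-day, 2-week and 1-month controls (n = 4 each). The study's own table gives these as 10 days, 3 weeks and 5 weeks after labeling. Animals of 3 days and 1 week were both set against the 4-day controls, those of 2 weeks against the 2-week controls and those of 1 month against the 1-month controls. An error in the 4-day controls therefore enters both early comparisons. By the study's table the 1-week animals were taken 2 weeks after labeling, later than these controls (10 days). The part of this unequal tracer time was not tested.

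Neuropeptides are cut from larger precursor proteins by convertases inside dense-core vesicles and released from the neuron to act on G protein-coupled receptors, often alongside a fast transmitter. In the dorsal horn, substance P (from Tac1) and CGRP (from Calca) are released by primary sensory fibres, while enkephalin (Penk), dynorphin (Pdyn), somatostatin (Sst), neuropeptide Y (Npy), cholecystokinin (Cck) and galanin (Gal) are made by groups of local interneurons. PACAP (Adcyap1) and VIP (Vip) are related peptides that act on shared receptors. Galanin, VIP, PACAP and NPY are known from peripheral neurons as peptides whose levels change after axotomy.

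Several peptide promoters are textbook targets of cyclic AMP through the CRE motif, and the start regions of the genes are shown for this reason. RefSeq windows on GRCr8, from 250 bases before to 50 bases after the annotated start, were at hand for 8 of the 10 genes (Cck and Penk were not in the table). The CRE half-site TGACG, or CGTCA on the other strand, lay in the windows of 5 of the 8, and in 21.2% of all 33469 windows. The whole CRE TGACGTCA, which holds both half-sites, lay only in that of Sst among the 8, and in 1.83% of all windows. The AP-1 motif TGANTCA, which reads the same on both strands, lay in none of the 8 and in 7.33% of all windows. The stretches around the matches follow, 5′ to 3′ on the gene's strand with the match in capitals.
Vip (chr1:44470373-44470397, plus strand, match 97 bases before the start): atcaccactgTGACGtctttcgagg
Gal (chr1:210084621-210084645, minus strand, match 63 bases before the start): gctgagcgggTGACGcggcagctcc
Calca (chr1:178317627-178317651, minus strand, match 112 bases before the start): agcaccgaggTGACGcaatctgtct
Tac1 (chr4:36645367-36645391, plus strand, match 206 bases before the start): cctaaaattgCGTCAtttcgaaccc
Sst (chr11:90461538-90461565, plus strand, match 2 bases after the start): cctccttggcTGACGTCAgagagagagt
The windows of Adcyap1, Npy and Pdyn held none of the 3 motifs. The starts used for Adcyap1, Vip, Tac1 and Calca lie inside the annotated genes, and so do the matches of Vip and Tac1. The Adcyap1 start lies 12623 bases from the first base of its gene, and those of Calca, Tac1 and Vip 59, 239 and 248. For Adcyap1 the region at the first base of the gene was therefore not searched. The matches are a description of the sequence, and binding was not measured.

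The identity of the samples was checked with marker genes. Transcripts of neurons (Snap25, log2 intensity 12.10 to 12.41 over the 24 arrays), of excitatory (Slc17a6, 8.39 to 9.55) and of glycinergic neurons (Slc6a5, 8.88 to 10.04) were measured in every animal. Glial transcripts were at high intensities as well, such as Gfap (8.59 to 11.55) and Aqp4 (9.28 to 10.78) of astrocytes and Mbp of oligodendrocytes (10.89 to 11.48). Of 13 microglial and macrophage markers, 8 rose at 3 days, when 2.89% of all probes were called. At each later time 0 passed, when 0% of all probes were called. In the average of the 4 times 7 rose (0.404% of all probes called). At 1 week, 2 weeks and 1 month 12, 12 and 13 of the 13 were higher, with medians of 0.45, 0.74 and 0.59. The other glial and blood cell markers called at 3 days were Slc6a11 (-1.34) and Gjb6 (-0.45) of astrocytes, which fell, and 2 that rose. These were Cldn11 of the oligodendrocyte list (0.78) and Lcn2 of the lymphocyte and neutrophil list (1.84). Of 8 oligodendrocyte markers tested, 5 were higher and 3 lower at 3 days (median 0.06). Of 8 lymphocyte and neutrophil markers tested, 5 were higher and 3 lower (median 0.05). Of 9 astrocyte markers tested, 2 were higher and 7 lower at 3 days. Gfap was higher without a call, with a mean of 11.37 at 3 days against 10.46 in the 4-day controls. Its average over the 4 times was 0.84 (SE 0.22, limma adjusted p = 0.125). Among the 4-day controls, animal 3 stood apart. Its summed microglial intensity was 3585.9 against 7005.4 to 8953.1 in the other 3, and its array quality weight in limma was 0.33. Since whole samples of collected neurons were measured, fewer cells of a type and less RNA per cell cannot be told apart.

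Taken one time at a time, none of the 10 peptide genes passed limma's test at an adjusted p of 0.05. At 3 days 0 of 10 were called, when 2.89% of all probes were. The counts were 0 of 10 at 1 week, 2 weeks and 1 month also, times at which 0% of all probes passed. Over the average of the 4 times, 1 of 10 passed, namely Adcyap1, against 0.404% of all probes. The 10 genes were chosen with earlier results of these data known, and the study lists Adcyap1 among its changed genes. The shares set side by side here describe the list and do not test it. At an unadjusted p under 0.05 limma gave 2 members at 3 days (Npy and Calca, 14.2% of all probes), 1 at 1 week (Adcyap1, 4.44%), 2 at 2 weeks (Adcyap1 and Gal, 5.29%), 2 at 1 month (the same pair, 3.44%) and 3 in the average (Adcyap1, Gal and Calca, 8.87%). The methods' t-test called 0 of 10 after adjustment, and at an unadjusted p under 0.05 it gave Calca at 3 days (8.61% of all probes), Adcyap1 at 1 week (2.78%), Gal at 2 weeks (6.68%), and Adcyap1, Gal and Sst at 1 month (5.09%).

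The group of 10 was not displaced as a whole at 3 days, when 5 were higher and 5 lower than the controls and the median log2 difference was -0.05 (all probes -0.01). At 1 week 9 of 10 members were higher (49.8% of all probes), and at 2 weeks 6 of 10 (49.5%). At 1 month 9 of 10 were higher (45.8%). The medians at these times were 0.16, 0.20 and 0.31, against medians of all probes between -0.01 and 0.00. The 1-month controls were themselves lower than the 2-week controls for 9 of 10 members (median -0.17). They were lower than the 4-day controls for 8 of 10 (median -0.095). Of all probes, 42.7% and 47.2% were higher in the 1-month controls. Every transected array lay above every matched control array for 0 of 10 members at 3 days (2.75% of all probes), 1 at 1 week (Adcyap1, 0.723%), 2 at 2 weeks (Adcyap1 and Gal, 9.9%) and 3 at 1 month (Adcyap1, Gal and Sst, 5.93%). With 2 animals in the late groups, such separation is common among all probes.

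**Figure D1:**
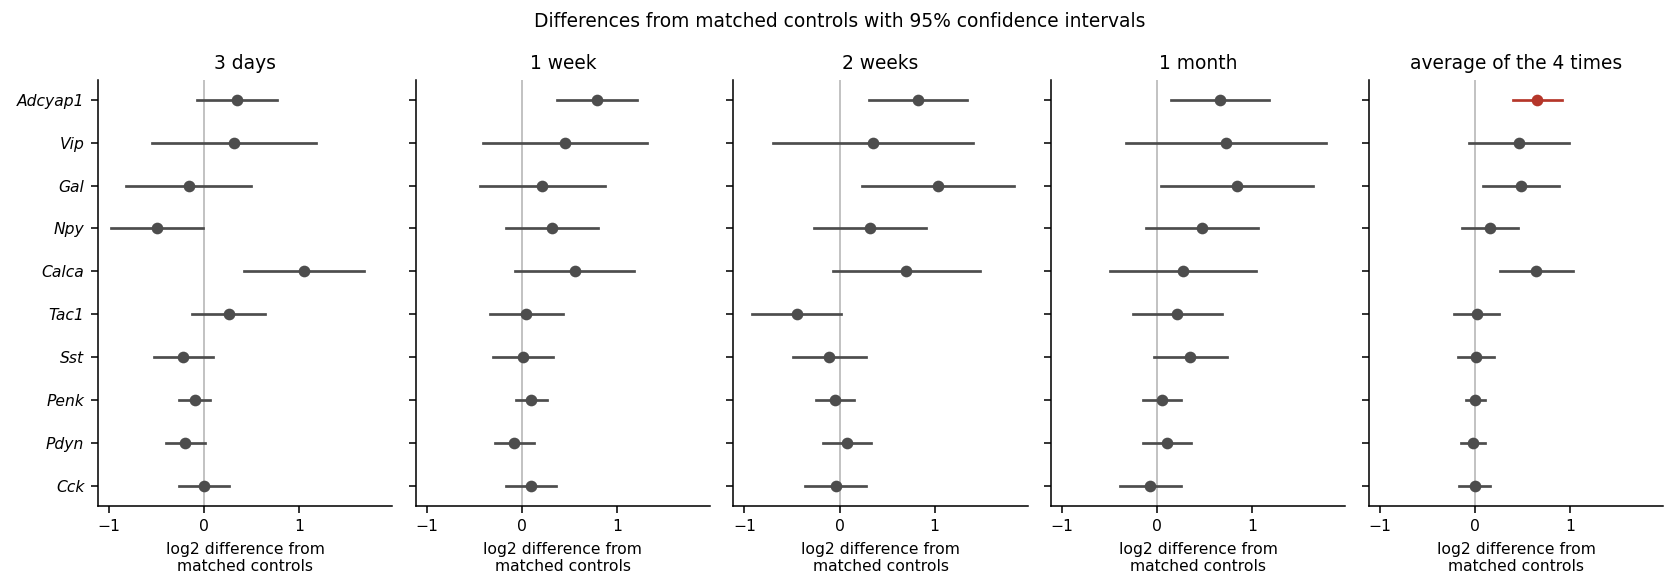
Log2 difference between transected animals and their matched controls for the 10 peptide genes at 3 days, 1 week, 2 weeks, 1 month and in the average of the 4 times. Points are limma estimates and bars 95% confidence intervals; red marks the only call, Adcyap1 in the average (0.65), and the widest bars belong to Vip.

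Adcyap1, which encodes the precursor of PACAP, was the only one of the 10 that rose. Its log2 intensity was 6.55, 6.73, 6.95 and 7.27 in the 4-day controls, 6.86, 6.86, 7.43 and 7.72 at 3 days, and 7.47, 7.66, 7.75 and 7.78 at 1 week. At 3 days 2 of 4 animals lay within the control range and 2 above it, while at 1 week all 4 lay above every control. The 2-week controls read 6.53, 6.77, 6.80 and 7.34, and the 2 animals of 2 weeks 7.41 and 7.96. The 1-month controls read 6.76, 6.91, 7.10 and 7.24, and the 2 animals of 1 month 7.51 and 7.81. At both late times the groups were again apart, and 10 of the 12 transected animals were above the mean of their matched controls.

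The differences in Adcyap1 were 0.34 at 3 days (SE 0.20, limma adjusted p = 0.493), 0.79 at 1 week (SE 0.20, adjusted p = 0.95), 0.83 at 2 weeks (SE 0.25, adjusted p = 0.688) and 0.66 at 1 month (SE 0.25, adjusted p = 1). The first of these is a 1.27-fold and the third a 1.77-fold level. The average of the 4 was 0.65 (SE 0.12, 95% interval 0.40 to 0.91, adjusted p = 0.0166), or 1.57-fold. It did not pass without 2-week animal 3 (0.58, adjusted p = 0.0901), without 1-month animal 2 (0.62, adjusted p = 0.0595) or with 4-day controls 1 and 2 only (0.72, adjusted p = 0.0507). Without 4-day control 3 it was 0.63 (adjusted p = 0.0478).

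Ranked by mean level, the 3 later transected groups came first for Adcyap1, at 7.69 (2 weeks), 7.66 (1 week) and 7.66 (1 month). Differences among these 3 groups were not tested. The 3-day group came next at 7.22, and the controls were at 7.0 (1 month), 6.87 (4 days) and 6.86 (2 weeks). The level at 3 days was 0.44 below that of 1 week (SE 0.20, adjusted p = 0.359). Adcyap1 had its smallest difference at 3 days, the time at which most probes were called, but neither this nor the contrasts with 2 weeks and 1 month passed the test.

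Microglial markers were also mostly higher in the transected groups than in their matched controls. Their summed linear intensity was 3585.9 to 8953.1 in the 4-day controls, 9613.5 to 12953 at 3 days and 7609.3 to 10278 at 1 week. It was 4006.6 to 4991.3 against 6339.8 to 7487 for the 2-week controls and 2 weeks p.i., and 3774.4 to 4732.2 against 5681.5 to 6091.5 for the 1-month controls and 1 month p.i. None of the 13 markers was at the lowest value of the arrays, 17. The sum was highest at 3 days, where Adcyap1 had its smallest difference. Their part in the result was not tested.

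**Figure D2:**
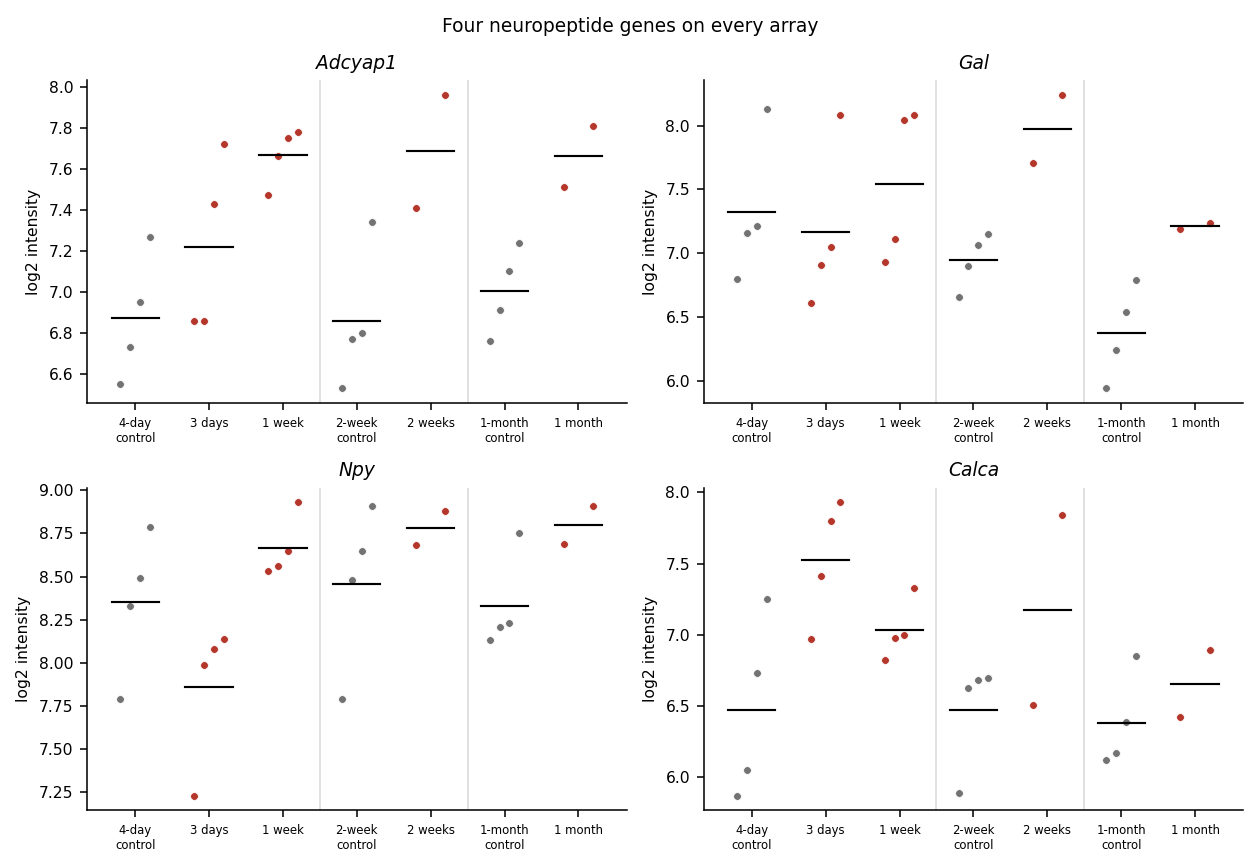
Log2 intensity of Adcyap1, Gal, Npy and Calca on all 24 arrays, in 7 groups controls in gray and transected animals in red, with a black line at the mean of each group; vertical lines part the sets that were compared. Adcyap1 is above all matched controls from 1 week on, Calca is highest at 3 days (6.97 to 7.93), and Npy is lowest at 3 days (7.23 to 8.14).

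Vip, the precursor gene of the peptide closest to PACAP, was the most variable of the 10, with a pooled SD of 0.64 between animals of a group (99.6th percentile of all probes). Its log2 intensity ranged from 5.08 to 7.23 in the 2-week controls alone. It was 5.57 to 6.76 in the 4-day controls, 5.52 to 7.18 at 3 days and 6.09 to 6.97 at 1 week. The mean differences were positive at each time (0.32, 0.46, 0.36 and 0.72), but the groups overlapped throughout and the average of 0.46 had an interval of -0.07 to 0.99 (limma adjusted p = 0.647). A change of the size seen in Adcyap1 lies within this interval.

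Gal, which encodes galanin, showed its differences late. The 4-day controls read 6.80, 7.16, 7.21 and 8.13, the animals of 3 days 6.61, 6.91, 7.05 and 8.08, and those of 1 week 6.93, 7.11, 8.04 and 8.08. High values stood in 1 animal of the controls, 1 of 3 days and 2 of 1 week, and the groups overlapped. In the 2-week controls it was 6.66, 6.90, 7.06 and 7.15 against 7.71 and 8.24 at 2 weeks, and in the 1-month controls 5.94, 6.24, 6.54 and 6.79 against 7.19 and 7.24. The late groups did not overlap, with differences of 1.04 (SE 0.39, 2.05-fold, limma adjusted p = 0.801) and 0.84 (SE 0.39, 1.79-fold, adjusted p = 1). Against the 3-day difference of -0.16, that of 2 weeks was larger by 1.20 (as 3 days minus 2 weeks -1.20, SE 0.50, unadjusted p = 0.025, adjusted p = 0.612).

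The level of Gal was also unequal between uninjured animals. The 1-month controls were 0.95 below the 4-day controls on the log2 scale (SE 0.31, unadjusted p = 0.0067, limma adjusted p = 0.214), with all 4 arrays below all 4 (2.55% of all probes). Both transected animals of 1 month (7.19 and 7.24) lay within the range of the 4-day controls. The 1-month difference of Gal therefore depends on which controls it is set against. With all 12 controls pooled it was 0.33.

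Npy, which encodes neuropeptide Y, was the member that stood lowest at 3 days. The 4-day controls read 7.79, 8.33, 8.49 and 8.79, the animals of 3 days 7.23, 7.99, 8.08 and 8.14, and those of 1 week 8.53, 8.56, 8.65 and 8.93. All 4 animals of 3 days lay below the control mean of 8.35, and all 4 of 1 week above it. The difference from controls was -0.49 at 3 days (SE 0.23, limma adjusted p = 0.339) and 0.32 at 1 week (SE 0.23, adjusted p = 0.999). Without 3-day animal 2 the first was -0.28, and without 4-day control 1 they were -0.68 and 0.13. The 2 transected groups did not overlap (2.96% of all probes lay apart in this direction), and 3 days was 0.81 below 1 week (SE 0.23, as 3 days minus 1 week -0.81, adjusted p = 0.0719). This misses the threshold, and passed it with array quality weights (-0.90, adjusted p = 0.0345). At the late times Npy read 8.68 and 8.88 (2 weeks) and 8.69 and 8.91 (1 month), within or near the upper end of their controls (7.79 to 8.91 and 8.13 to 8.75). The differences there were 0.32 and 0.47.

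Calca gives rise to calcitonin and CGRP, the latter a peptide of motor neurons and sensory neurons. It was the member with the largest difference at 3 days. The 4-day controls read 5.87, 6.05, 6.73 and 7.25, the animals of 3 days 6.97, 7.41, 7.80 and 7.93, and those of 1 week 6.82, 6.98, 7.0 and 7.33. All 4 animals of each time were above the control mean, but control animal 4 (7.25) lay above the lowest animal of 3 days. The 2-week controls read 5.89, 6.63, 6.68 and 6.70 against 6.51 and 7.84, and the 1-month controls 6.12, 6.17, 6.39 and 6.85 against 6.42 and 6.89. In all, 12 of the 12 transected animals were above the mean of their matched controls, and the groups overlapped at every time.

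At 3 days the difference in Calca was 1.05 (SE 0.30, 95% interval 0.42 to 1.68, 2.07-fold, limma adjusted p = 0.0646), which misses the threshold. It was 0.56 at 1 week, 0.70 at 2 weeks and 0.27 at 1 month, and 0.65 on average (SE 0.19, adjusted p = 0.166). The late values rest on single animals, with 0.04 at 2 weeks without animal 3 (1.37 without animal 4) and 0.04 at 1 month without animal 1 (0.50 without animal 2). Calca passed at 3 days with all 12 controls pooled (1.08, adjusted p = 0.00402) and without 4-day control 4 (1.31, adjusted p = 0.0238). It was 0.85 without 4-day control 3 (adjusted p = 0.172). The microglial sums given for Adcyap1 moved with Calca at 3 days, where both were highest, and their part in the result was not tested.

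Since sensory and motor neurons make CGRP, their markers were read beside Calca. The summed intensity of 5 motor neuron markers was 518.63 to 613.42 at 3 days, inside the 377.18 to 659.73 of the 4-day controls. At 2 weeks it was 679.63 to 731.55 against 539.34 to 617.75 in the 2-week controls, and its part in the peptide values of that time was not tested. Of 8 sensory neuron markers, 6 were on the array and 4 passed the filter on low values. The sum of all 6 at 3 days (409.71 to 483) overlapped that of the 4-day controls (361.1 to 446.88). Of the 4 that passed the filter, Trpv1, a channel of pain fibres, stood lowest. It was near the filter limit at a median log2 intensity of 5.17. The medians of P2rx3, Mrgprd and Prph were 6.02, 6.41 and 7.29. Prph, the intermediate filament peripherin and a member of both lists, rose at 3 days by 0.45 (SE 0.11, adjusted p = 0.0309), and was the only call in either list.

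The 3 probes most like Calca over the 24 arrays, out of 13706 with another single symbol, were those of Uts2 (Pearson r 0.838), Lcp1 (0.826) and Gap43 (0.812). Uts2 encodes urotensin 2, itself a peptide precursor, Lcp1 is an actin-bundling protein of leukocytes and Gap43 a growth cone protein. Within groups, with the group means removed, r was 0.83 for Uts2, 0.612 for Lcp1 and 0.574 for Gap43. For Adcyap1, a set chosen after its values were seen, the nearest were Camk2d (r 0.703), Tp53i11 (0.696) and Scn3a (0.67), and within groups 0.679, 0.806 and 0.466. These correlations share arrays and normalization and are a description only.

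Tac1, which encodes substance P and neurokinin A, read 7.90 to 8.13 in the 4-day controls, 7.99 to 8.78 at 3 days and 7.88 to 8.31 at 1 week. It was 7.55 and 8.20 at 2 weeks against 7.99 to 8.57, and 7.98 and 8.30 at 1 month against 7.68 to 8.45. Its differences were 0.26, 0.05, -0.45 and 0.21, without a call (smallest limma adjusted p 0.606). All groups overlapped their controls.

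Sst, the precursor gene of the inhibitory peptide somatostatin, read 9.16 to 9.61 in the 4-day controls, 8.78 to 9.69 at 3 days and 9.29 to 9.49 at 1 week. At 2 weeks it was 9.37 and 9.41 against 9.27 to 9.80, and at 1 month 9.50 and 9.58 against 9.02 to 9.36. Only at 1 month were the groups apart, with a difference of 0.35 (SE 0.18, limma adjusted p = 1). The other differences were -0.22, 0.01 and -0.11.

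The opioid precursors were the steadiest of the set. Penk (enkephalins) had a pooled SD of 0.10 between animals of a group, below the median of all probes (0.171), and Pdyn (dynorphins) one of 0.138. Penk read 6.80 to 6.94 in the 4-day controls, 6.60 to 7.03 at 3 days and 6.91 to 7.03 at 1 week, and over all 24 arrays it kept between 6.60 and 7.03. Its 4 differences lay between -0.10 and 0.10, and the average was 0.00 with an interval of -0.10 to 0.10. Pdyn read 6.50 to 6.81 in the 4-day controls and 6.34 to 6.62 at 3 days, a difference of -0.20 (SE 0.10, limma adjusted p = 0.389), and its later differences were -0.08, 0.08 and 0.11. The average of Pdyn was -0.02 with an interval of -0.15 to 0.10. At 3 days alone the intervals were wider, from -0.40 to 0.01 for Pdyn and from -0.26 to 0.07 for Penk. The mean levels were moderate, 6.89 for Penk and 6.58 for Pdyn (percentiles 63.4 and 57.1 of all probes). The sensory neuron marker Mrgprd had a median of 6.41. Detection limits were not given, and the part of background signal in the steady values was not tested.

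Cck, which encodes cholecystokinin, was close to its controls in mean at every time, with a pooled SD of 0.184 between animals of a group. It read 6.45 to 6.86 in the 4-day controls, 6.36 to 7.04 at 3 days, 6.69 to 6.96 at 1 week, 6.72 and 7.10 at 2 weeks and 6.52 and 6.86 at 1 month. The 2-week and 1-month controls were at 6.79 to 7.06 and 6.67 to 6.83. Its differences were 0.00, 0.10, -0.04 and -0.07, and the average was -0.01 (95% interval -0.17 to 0.16, limma adjusted p = 0.994). Its mean level of 6.79 was moderate too (percentile 61.7), and the part of background signal was not tested.

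**Figure D3:**
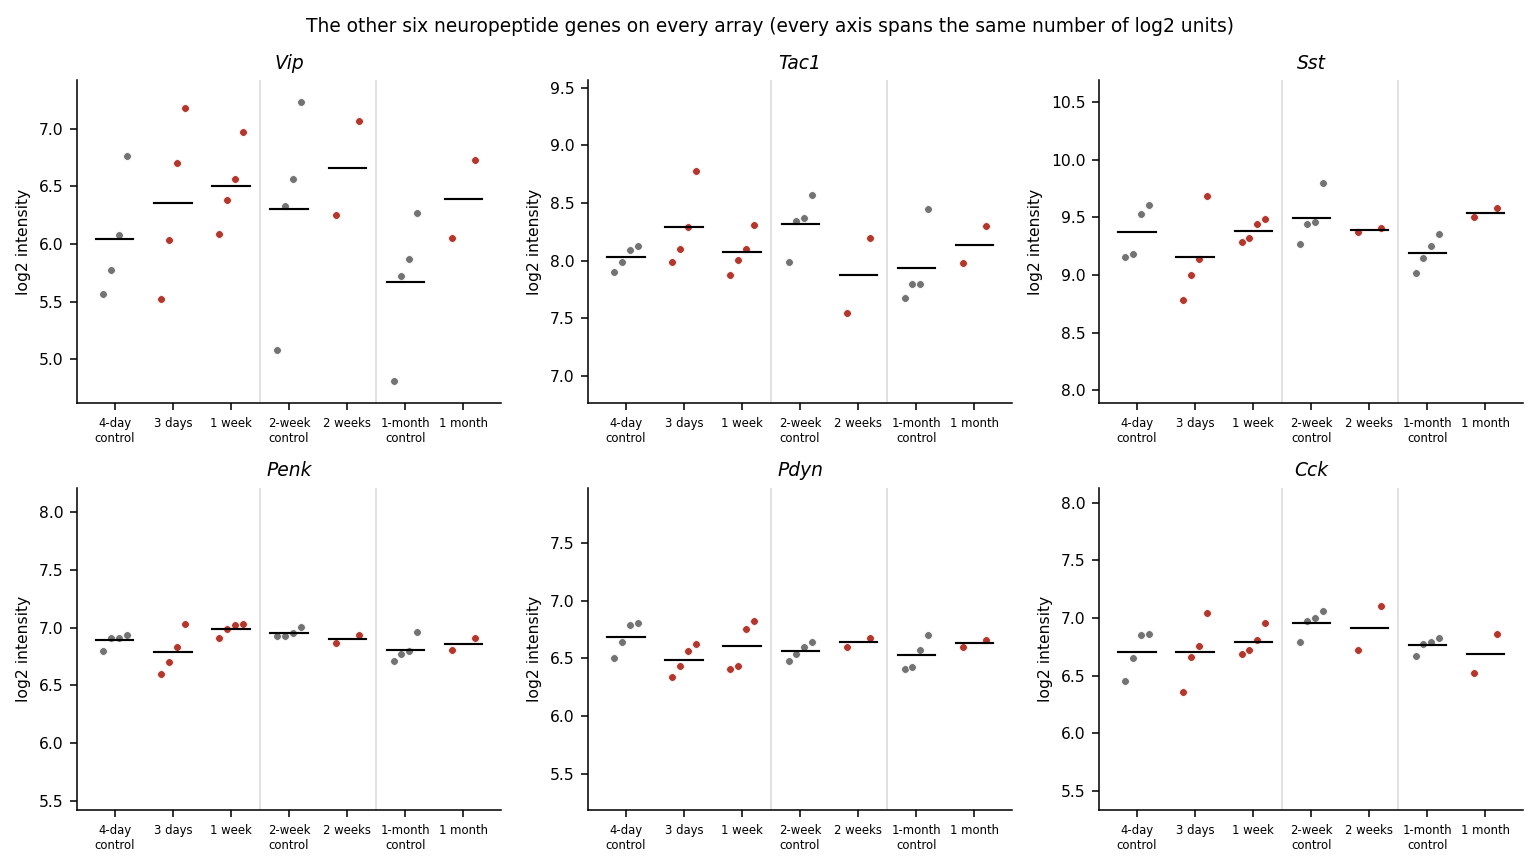
Log2 intensity of Vip, Tac1, Sst, Penk, Pdyn and Cck on all 24 arrays, controls in gray and transected animals in red, with a black line at each mean; each vertical axis spans the same number of log2 units. Vip is scattered widely in every group (5.08 to 7.23 in the 2-week controls) and Penk hardly at all (6.60 to 7.03 over all arrays).

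The times at which the members stood highest above their controls were spread. The largest difference fell at 3 days for 2 members (Calca and Tac1), at 1 week for 2 (Cck and Penk), at 2 weeks for 2 (Adcyap1 and Gal) and at 1 month for 4 (Vip, Npy, Sst and Pdyn). The lowest signed difference was at 3 days for 7 of 10. Lowest here does not mean smallest in size, as with Npy (-0.49 at 3 days). Below controls at 3 days and above them at 1 month were 5 of 10. The share of all probes with these patterns was not counted. Only Adcyap1, Vip and Calca were above controls at all 4 times.

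These orders were tested as differences between 3 days and each later time. None of the 10 passed at 1 week (2.47% of all probes did), at 2 weeks (0.0904%) or at 1 month (0.0904%). At an unadjusted p under 0.05 limma gave 3, 3 and 2 members. They were Adcyap1, Npy and Penk against 1 week (12.3% of all probes), Gal, Npy and Tac1 against 2 weeks (6.98%), and Npy and Sst against 1 month (7.22%). Npy was among them each time, with differences of -0.81, -0.81 and -0.97. The contrast with 1 week compares the 2 transected groups directly, as both share the 4-day controls, and those with 2 weeks and 1 month subtract each time's own controls. Differences among the 3 later times were not tested.

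The uninjured groups were compared in the same way. No member was called between 2-week and 4-day controls (0% of all probes), between 1-month and 4-day controls (0.0043%) or between 1-month and 2-week controls, where 10.2% of all probes passed. At an unadjusted p under 0.05 limma gave 0 members between 2-week and 4-day controls (14.3% of all probes), Gal between 1-month and 4-day controls (13.2%) and Tac1 between 1-month and 2-week controls (30.1%). Tac1 was 0.39 lower in the 1-month controls (as 1-month minus 2-week -0.39, SE 0.18, adjusted p = 0.159).

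Around the peptides, 1 of 34 other precursors, 1 of 16 processing genes and 0 of 25 receptors were called at 3 days. Of all probes, 2.89% were called at that time, and a difference of the lists from this share was not tested. Of 40 other neuropeptide precursors, 34 were tested, and at 3 days 0 rose and 1 fell, with a median log2 difference of 0.02. The gene that fell was Nppc, the precursor of C-type natriuretic peptide, by 0.38 (SE 0.10, limma adjusted p = 0.0334). The largest difference of the list was that of Cartpt, chosen after its values were seen, at -0.83 (SE 0.29, adjusted p = 0.142).

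Of 19 genes of peptide processing and granules, 16 were tested, and at 3 days 0 rose and 1 fell. The gene was Pcsk1n, which encodes proSAAS, an inhibitor of a prohormone convertase, and it fell by 0.26 (SE 0.07, limma adjusted p = 0.0429). Of the 16, 11 were lower, and the median was -0.18 against -0.01 for all probes. By 1 week the median was 0.03. Of 31 receptor genes of these peptides 25 were tested, with 0 calls and a median of -0.09 at 3 days. Those with the smallest p were Ramp1, a subunit of the CGRP receptor (-0.30, adjusted p = 0.125), and Tacr3, the neurokinin B receptor (-0.47, adjusted p = 0.217). None of the 3 lists had a call at 1 week, 2 weeks, 1 month or in the average. Of all probes, 0% passed at each of these times and 0.404% in the average. At an unadjusted p under 0.05, limma gave 14.2% of all probes at 3 days. The lists had 5 of 34 precursors, 6 of 16 processing genes and 6 of 25 receptors.

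Neuronal markers were somewhat lower on the same arrays at 3 days. Of 14, 12 were lower and 1 fell, Rbfox3 (NeuN), by 0.40 (SE 0.10, adjusted p = 0.0386), with a median of -0.09, and their summed intensity was 28041 to 30835 against 29012 to 31726 in the 4-day controls. This moved with Npy, Pcsk1n and the other genes that stood lower at 3 days, and its part in their values was not tested.

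**Figure D4:**
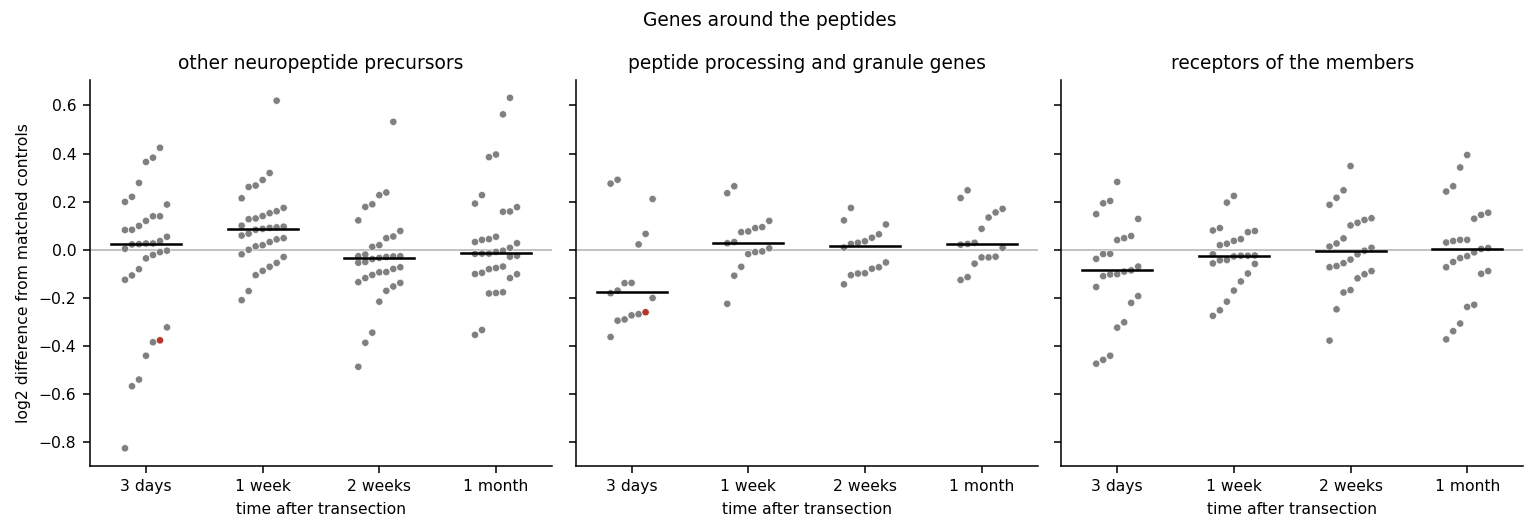
Log2 difference from matched controls at 4 times for other neuropeptide precursors (34 genes), peptide processing and granule genes (16) and receptors of the members (25). Each point is a gene, black lines are medians and red points passed limma's adjusted p of 0.05; the processing genes lie lowest at 3 days (median -0.18), where the 2 calls Nppc and Pcsk1n are.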

How the data were processed

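The authors normalized the 24 arrays with RMA, and the deposited values are linear intensities, 1 for each probe and array. They ran from 17 upward with array medians of 73.6 to 81.3, and their log2 was used throughout. Background and detection limits were not given with the values. Precision is limited by the number of arrays. Probes were named through the platform annotation (1 symbol for 15097 of 27342 probes, several for 323, none for 11922).

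Group means of the 7 groups were fitted in 1 model with limma 3.58.1 in R 4.3.3, after removal of the lowest 15 percent of probes. P-values were adjusted by Benjamini-Hochberg over the 23240 probes of each comparison, with a threshold of 0.05. Unless stated otherwise, adjusted p-values are limma's. The methods' t-test (2 groups, equal variances) and 2-way ANOVA were run as alternatives. Promoter windows came from RefSeq on GRCr8. The fit was tested on simulated data.

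The 10 genes, the gene lists and the markers were chosen with earlier results of these data known. Named were all 10 genes, list genes that were called (else the 2 with the smallest p at 3 days) and the 3 probes most correlated with the called, or else first-ranked, member at 3 days. Replicates are separate animals. Their numbers were checked for pairing and do not pair them. Figures were drawn with matplotlib 3.10.9 in Python 3.11.15.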

Additional observations from a re-analysis of the deposited data

Results flagged for a closer look

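In 3 of the 50 groups of 4 arrays that were checked, a lone animal stood apart from the other 3, where chance gives about 1 in 20 groups. Npy read 7.23 in animal 2 of 3 days, against 7.99 to 8.14 in the others. Tac1 read 8.45 in animal 4 of the 1-month controls, against 7.68 to 7.80. Calca read 5.89 in animal 4 of the 2-week controls, against 6.63 to 6.70.

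In 4 of 30 pairs of later times, all transected animals of one time were above the mean of their matched controls and all of the other below it. For Tac1, 2 weeks minus 1 month gave -0.66 (-0.45 and 0.21 against controls), while the group means were 7.87 and 8.14 in transected animals and 8.32 and 7.93 in their controls. For Sst the same pair gave -0.45 (-0.11 and 0.35), with means of 9.39 and 9.54 in transected animals and 9.49 and 9.20 in controls. For Penk, 1 week minus 2 weeks gave 0.15 (0.10 and -0.05) and 2 weeks minus 1 month -0.10 (-0.05 and 0.05). These differences between times were not tested, and the share of all probes with such a split was not counted. The 2-week and 1-month transected groups held 2 animals each.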

How the results depend on the processing

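No called value changed sign under any alternative run. The call of Adcyap1 in the average held in 30 of 33 alternatives, with values of 0.58 to 0.72. The number of members called in the average fell from 1 to 0 with 4-day controls 1 and 2 only, and was 0 to 1 when arrays were left out in turn (0 without 2-week animal 3 or 1-month animal 2). The number called at 3 days, 0 in the main model, was 1 (Calca) with all 12 controls pooled and 1 at an adjusted p under 0.1. It was 0 to 1 when arrays were left out (1 without 4-day control 4, 3-day animal 1, or 2-week animal 3 or 4). The number called between 3 days and 1 week, also 0, was 1 (Npy) with array quality weights and 1 at an adjusted p under 0.1. It was 0 to 1 when arrays were left out (Npy without 2-week control 2, Penk without 3-day animal 3). The causes were not tested. A replicate block left the count in the average at 1 and changed no member's call; same-numbered animals had a mean r of 0.0201 (55 pairs), and others -0.00586 (189 pairs).

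Over all probes, the 671 calls at 3 days became 22 with only the groups compared, 2117 with all controls pooled, 286 with 4-day controls 1 and 2 only, 1144 at an adjusted p under 0.1 and 0 by the methods' t-test (2001 unadjusted), and 419 to 1056 when arrays were left out. The 94 in the average became 28, 157 at an adjusted p under 0.1, and 25 to 169 when arrays were left out. The 0 calls of the other times became up to 12 at 1 week (all controls pooled), 37 at 2 weeks (array quality weights) and 12 at 1 month (without 1-month animal 2). The 574 between 3 days and 1 week became 259 with only the groups compared and 318 to 816 when arrays were left out. A mean over the probes of a symbol was not run, as each member has 1 probe.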
